A study of Mus musculus with 18 samples.

Results

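The comparison described here set 7 libraries from mouse thyroid tumours carrying both BrafV600E and Tert-123C>T, a change in the promoter of Tert (Tert-123 tumours), against 4 libraries from tumours carrying BrafV600E alone (Braf tumours), over all genes measured. The groups were taken from the genotype labels, and the 11 libraries are part of a series of 18, whose other libraries are 4 tumours with BrafV600E and the transgene K5-Tert (K5-Tert tumours) and 3 single pools without the Braf mutation, labelled wild type, Tert-123C>T and K5-Tert. All 11 libraries were labelled as thyrocytes sorted for yellow fluorescent protein (YFP), taken at 20 weeks from naïve animals, so the tumours of both groups share the Braf mutation, the reporter, the age and the lack of treatment. The labels do not give the strain, the sex, the Cre driver, a batch, or whether each library came from a separate animal, so the p-values below measure the spread between these libraries. By the sex-linked genes Xist and Ddx3y, given below, the Braf tumours read as female and the Tert-123 tumours as a mix of both sexes. Levels are in TPM, a transcript abundance which scales each gene by its length and each library to the same total.

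Tert encodes the reverse transcriptase subunit of telomerase, the enzyme that adds repeats to chromosome ends. Most differentiated cells keep the gene nearly silent. In human thyroid cancer, point mutations in the TERT promoter often accompany BRAF V600E, and such mutations are known to create binding motifs for ETS transcription factors, among them the GABP complex. BrafV600E itself keeps the MAPK cascade active, and several ETS factors are targets of that cascade.

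The bases around the mutated position are shown because the allele is the only labelled difference between the groups. They lie on the plus strand at chr13:73626889-73626918 in RefSeq's GRCm38.p6 sequence, in the Tert promoter. The capital marks the base at chr13:73626907, whose distance before the annotated start codon equals the number in the allele's name and which lies 4 bases before the first annotated base of the transcript. The labels do not say from where they count, and this origin was chosen because the reference holds a C there. The substitution is C123T in that count.
Reference: cctgaatcccgccccttcCtccgttcccag
With the change: cctgaatcccgccccttcTtccgttcccag
The motif CTTCCG, whose reverse complement CGGAAG is an ETS-type core, was searched on both strands of the 300 bases around the Tert start. It occurred 1 time in the reference and 2 times with the substitution, and 16.85% of 32851 mouse promoters of that length hold it. A match describes the letters and does not show binding.

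Before the comparison, the libraries were set against each other. Rpph1, the RNA component of ribonuclease P, accounted for between 43.7% (Tert-123 tumour 7) and 67.4% (Tert-123 tumour 1) of all TPM. Each library sums to the same total, so a larger Rpph1 share lowers the TPM of every other gene. Values of other genes are thus scaled down in tumour 1 and up in tumour 7. The part of this scaling in single values below was not tested. The number of genes at 1 TPM or more was 13103 to 15045. Tert-123 tumour 4 stood apart: its rank correlation with the other libraries was 0.734 to 0.858, while the other 45 pairs lay between 0.845 and 0.949. The thyrocyte label was set against its markers: over the 11 libraries the thyroid transcription factor Pax8 stood at 53.3 to 150.9 TPM, Nkx2-1 at 87.2 to 270.9 TPM and thyroglobulin (Tg) at 81.8 to 510.5 TPM. The iodide transporter Slc5a5 did not pass 3.54 TPM in any of them, and the peroxide-forming oxidase Duox2 did not pass 0.645 TPM. The lung surfactant gene Sftpb reached 2510 to 6515 TPM in Tert-123 tumours and 3409 to 7423 TPM in Braf tumours, in cells labelled thyrocytes.

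Markers of macrophages and fibroblasts, cells that a sort could hold, covered a wider range among the 7 Tert-123 tumours than among the 4 Braf tumours. The summed level of 12 macrophage genes was 707.5 to 1155 TPM in the 4 Braf tumours, and its lowest, median and highest values over the 7 Tert-123 tumours were 253, 1155 and 5836 TPM, with tumours 2 and 3 lowest and tumour 4 highest. The summed level of 6 fibroblast genes was 161.3 to 696.6 TPM in Braf tumours and 89.0 to 2379 TPM in Tert-123 tumours, again highest in tumour 4. Endothelial genes summed to 36.2 to 54.9 TPM and 47.0 to 91.4 TPM. T cell genes had similar ranges in both groups and did not pass 8.94 TPM in any of the 11 libraries, and the 4 globin genes were listed at 0 in all of them. Stress and immediate-early genes stood apart in Tert-123 tumour 7, at 3254 TPM against 1487 TPM or less in the others. In bulk samples, more cells of a type and more RNA per cell cannot be told apart, and the part of these differences in the results below was not tested. Values without tumours 4 and 7 are given where they differ, but those tumours were chosen for their high marker and stress sums, so a lower median of those lists without them follows from the choice. In the fit without both, the median difference of all genes was -0.05.

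**Figure D1:**
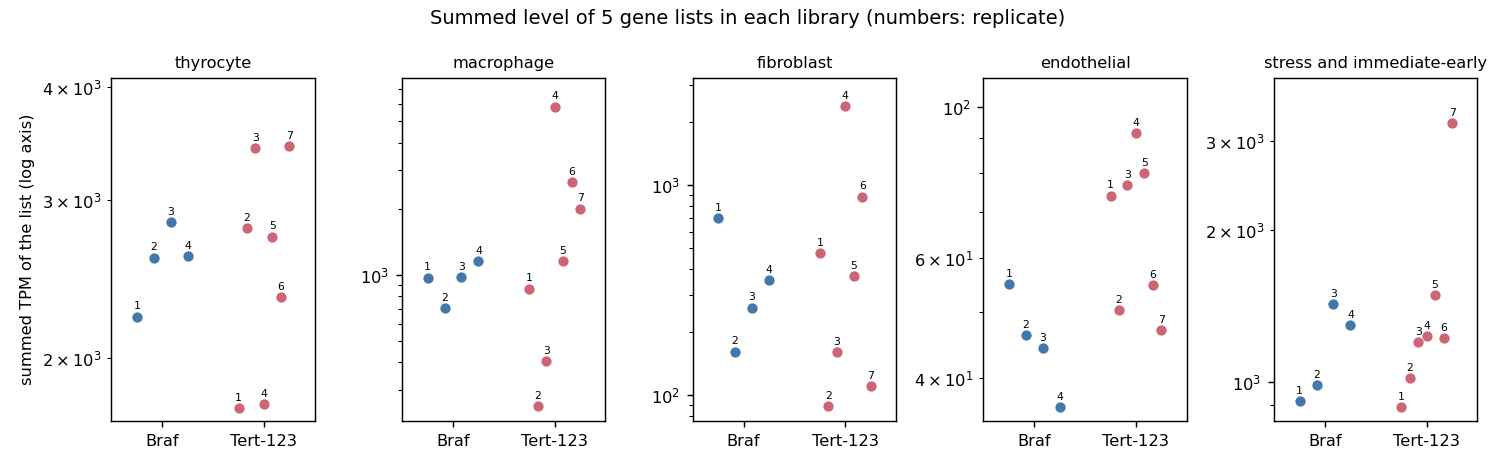
Each point is the summed level of a gene list in one library, in TPM on a log axis, for 4 Braf and 7 Tert-123 tumours, with the replicate number above it. Tert-123 tumour 4 is highest for macrophage (5836 TPM) and fibroblast genes (2379 TPM), and tumour 7 for stress genes (3254 TPM).

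Tert, the gene whose promoter carries the change, did not differ between the groups beyond the spread of the libraries. The 4 Braf tumours held 4.96, 4.49, 5.12 and 3.78 TPM. The lowest, median and highest of the 7 Tert-123 tumours were 2.65, 5.88 and 6.23 TPM. The groups overlapped: 4 Tert-123 tumours (1, 2, 5 and 6) lay above every Braf tumour, and tumour 4, which stands apart in other genes, lay below all of them. The difference was 0.12 on the log2(TPM + 1) scale (two-sided exact permutation test over 330 arrangements, n = 4 and 7, p = 0.5848), and inverting the same test gave a 95% interval of -0.31 to 0.54. Without tumours 4 and 7 the difference was 0.26 (exact permutation p = 0.0873). By comparison, the K5-Tert tumours held 73.9, 11.2, 19.0 and 53.4 TPM of Tert. The single Tert-123C>T pool without the Braf mutation held 8.79 TPM and the wild-type pool 2.15 TPM, a pair that has no replicate. These pools also differ in their cell markers, as given below. At these low levels the deposited values give no depth, so their counting error is unknown.

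Braf, the other mutated gene, did not separate the groups either. Its level was 5.91, 8.47, 9.03 and 9.03 TPM in Braf tumours, and 6.02, 7.65 and 8.99 TPM at the lowest, median and highest of the Tert-123 tumours. The difference was -0.03 (exact permutation p = 0.8758), with an interval of -0.32 to 0.26. Total Braf RNA does not tell the mutated allele from the normal one.

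Across the 7287 genes that reached 10 TPM in at least 4 of the 11 libraries, no gene passed the threshold of an adjusted p of 0.05. The test was limma with a mean-variance trend on log2(TPM + 1) and Benjamini-Hochberg adjustment, and it called 0 genes higher and 0 lower (0% of those tested), with a smallest adjusted p of 0.9994. Unadjusted p was under 0.05 for 40 genes higher in Tert-123 tumours (0.549%) and 59 lower (0.81%), together 99 (1.36%). Evenly spread p-values would give 364, and the count was 320 after rescaling without Rpph1. The 1.36% thus depends on the scaling, and where it stands beside smaller sets of genes below it is a description. The median difference over all genes was -0.007, with 3504 genes above 0 and 3783 below. The 95% interval lay wholly within a change of 1 on the log2 scale, which is 2-fold in log2(TPM + 1), for 6697 genes (91.9%), and 31 genes had a fitted difference larger than 1 in size. In data simulated from these libraries, the same test recovered 74.1% of genes changed by 1 and 96.7% of those changed by 2. The simulation lets genes vary independently of each other and gives both groups the same normal spread. In the data the SD was larger in Tert-123 tumours for 85.4% of genes. The 200 changed genes also make the adjusted threshold easier to pass. These shares therefore do not tell how many real changes of that size would have been found here.

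**Figure D2:**
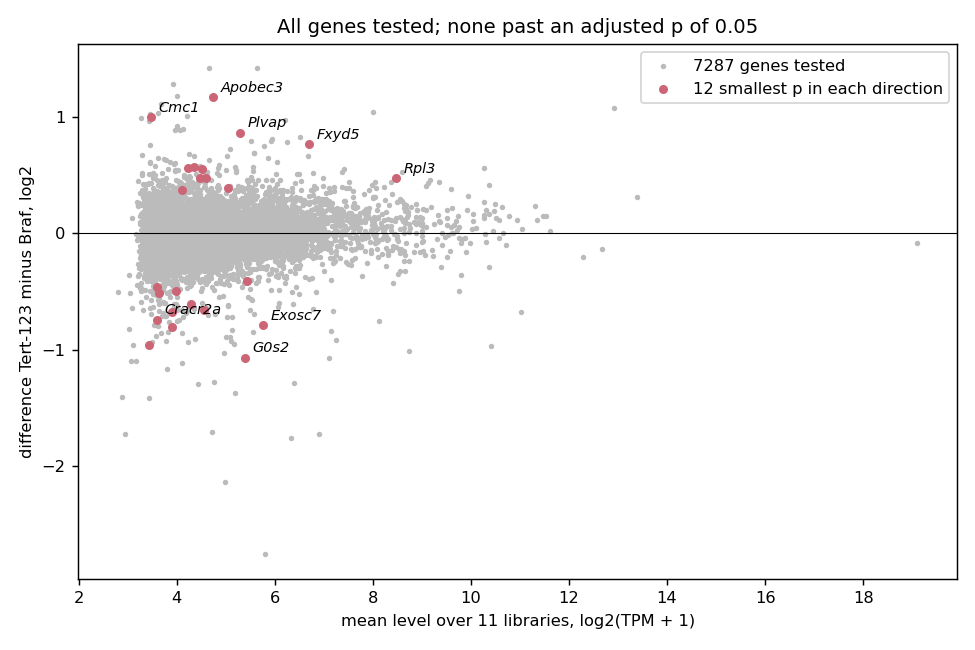
Each point is one of 7287 genes, with its mean level over 11 libraries, in log2(TPM + 1), on the x axis and the difference between Tert-123 and Braf tumours on the y axis. Red points are the 12 genes with the smallest p in each direction, and the smallest adjusted p over all genes was 0.9994.

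Since none passed the adjusted test, the 12 genes of smallest p in each direction are described by their levels. Those on the higher side were Apobec3, Cmc1, Plvap, Nr4a2, Smagp, Fxyd5, Rpl3, Habp4, Mknk2, Man2b2, Otulin and Cetn2, with fitted differences of 0.37 to 1.17.

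Apobec3 encodes a cytidine deaminase that restricts retroviruses. Braf tumours held 11.1, 12.8, 15.7 and 13.8 TPM, and the lowest, median and highest Tert-123 tumours held 12.7, 34.9 and 45.9 TPM. Of the 7 Tert-123 tumours, 6 lay between 27.1 and 45.9 TPM, above every Braf tumour, and tumour 7 lay among the Braf tumours. The difference was 1.17 ± 0.27 (SE; limma, unadjusted p = 0.0006817, adjusted p = 0.9994). Without tumour 7, the library that lay among the Braf tumours, it was 1.37 (limma, adjusted p = 0.008342), the only gene called in that fit. Leaving out that library narrows the spread of this gene, so the smaller p follows from the omission and supports nothing. Tumour 7 is also the library with the highest stress sum. In libraries outside the comparison, the K5-Tert tumours held 32.97, 12.17, 8.60 and 9.25 TPM. The Tert-123C>T pool held less than the wild-type pool (6.36 and 11.3 TPM).

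Cmc1, which takes part in the assembly of cytochrome c oxidase, was at 7.61, 3.85, 5.65 and 5.87 TPM in Braf tumours and at 7.92, 11.7 and 18.2 TPM (lowest, median and highest) in Tert-123 tumours. The groups did not overlap, and the difference was 0.997 ± 0.233 (SE, limma, adjusted p = 0.9994). Cmc1 passed the filter of 10 TPM through the Tert-123 tumours alone (5 of them, and 0 Braf tumours), so it could enter the test only by being higher there. The K5-Tert tumours, at 4.81 to 8.14 TPM, lay near the Braf tumours. Of the pools, Tert-123C>T held 9.34 TPM, wild type 3.73 TPM and K5-Tert 19.0 TPM.

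Rpl3, a protein of the large ribosomal subunit, stood at 245.3, 269.6, 330.8 and 291.9 TPM in Braf tumours and at 304.7, 386.5 and 457.9 TPM in Tert-123 tumours. Tert-123 tumour 1, the library with the highest Rpph1 share (67.4%), was the one inside the Braf range. The difference was 0.47 ± 0.16 (SE). All 4 K5-Tert tumours were higher than either mean, at 465.2 to 553.5 TPM. Ribosomal protein genes have many processed pseudogenes, so the value depends on how the authors assigned shared reads.

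Smagp, a small membrane glycoprotein of epithelial cells, was the other gene on the higher side without overlap, at 10.4 to 15.3 TPM in Braf tumours and 17.1 to 28.6 TPM in Tert-123 tumours. Plvap, which forms the diaphragms of endothelial fenestrae, was at 40.6, 21.4, 28.6 and 13.4 TPM in Braf tumours and at 33.7, 44.9 and 55.7 TPM in Tert-123 tumours. Its difference of 0.86 moved in the direction of the endothelial sum given above, whose part in it was not tested. Nr4a2, an immediate-early nuclear receptor, was at 21.7 TPM in Braf tumour 2 and at 15.4 TPM or less in the other 3, against 17.5, 26.7 and 28.5 TPM in Tert-123 tumours. Tumour 7, with its high stress sum, was the lowest Tert-123 library for this gene. Fxyd5, a regulator of the sodium pump, had a mean of 68.6 ± 8.22 TPM (SD, n = 4) against 123.2 ± 46.3 TPM (SD, n = 7), with its highest value, 209.1 TPM, in tumour 4.

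The remaining genes on that side differed by 0.37 to 0.56. Mknk2, a kinase that MAPK activates and that phosphorylates the cap-binding factor eIF4E, had means of 26.6 ± 3.57 and 35.2 ± 3.84 TPM (SD, n = 4 and 7). Otulin, which removes linear ubiquitin chains, had means of 14.5 ± 3.05 and 22.4 ± 6.16 TPM. Tert-123 tumours 1, 2 and 4 held 14.05, 16.12 and 18.09 TPM, inside the Braf range of 11.44 to 18.42 TPM. Tumours 5, 6 and 7, which read as male by the sex-linked genes below, held 24.55, 27.7 and 28.96 TPM. Tumour 3, which reads as female, held 27.27 TPM. The part of sex in this difference was not tested. Man2b2, a lysosomal mannosidase, reached its highest level, 36.3 TPM, in tumour 4. Cetn2, a centrin of the centriole, ranged from 15.7 to 31.99 TPM in Tert-123 tumours and overlapped the Braf tumours (14.3 to 21.7 TPM).

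**Figure D3:**
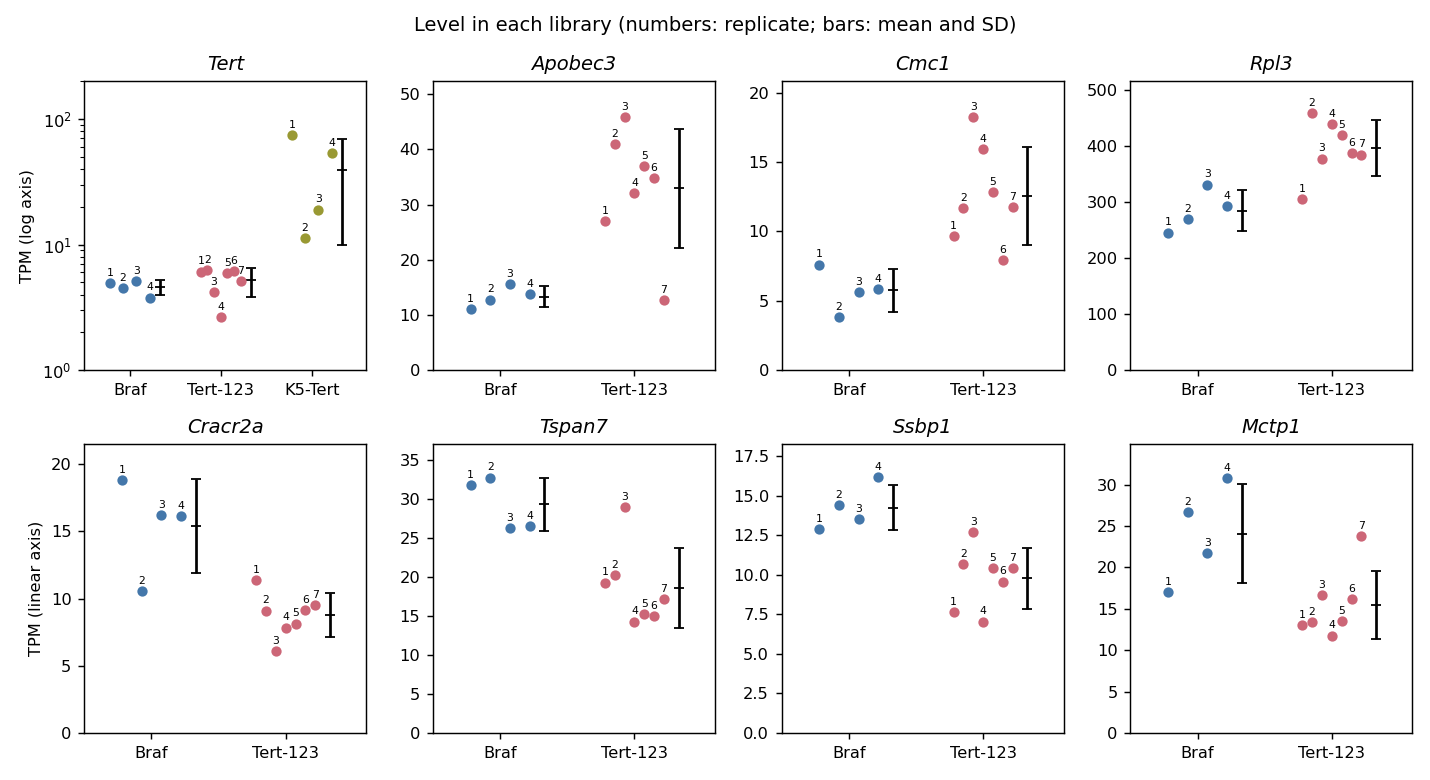
Levels of 8 genes in each library in TPM (log axis for Tert, linear axes for the others), with replicate numbers and, beside each group, the mean and SD. Tert overlaps between Braf and Tert-123 tumours and is higher in K5-Tert tumours (11.2 to 73.9 TPM), Apobec3 is higher in 6 of 7 Tert-123 tumours, and Cmc1 and Ssbp1 do not overlap between the groups.

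The 12 genes with the smallest p on the lower side were Cracr2a, Tspan7, Serpinb6b, G0s2, Mctp1, Gprin3, Ssbp1, 3300002I08Rik, Pibf1, Ppp1r35, Exosc7 and Ccdc59, with fitted differences of -1.07 to -0.41. Cracr2a, a calcium sensor of store-operated calcium entry, was at 18.8, 10.5, 16.2 and 16.1 TPM in Braf tumours and at 6.09, 9.11 and 11.4 TPM (lowest, median and highest) in Tert-123 tumours. Braf tumour 2 lay inside the Tert-123 range. Cracr2a reached 10 TPM in 4 Braf tumours and 1 Tert-123 tumour, so its place in the test rested on the group where it was higher. The difference was -0.74 ± 0.19 (SE; limma, adjusted p = 0.9994). In the K5-Tert tumours it was lower than in any of the 11, at 1.75 to 4.38 TPM. The pools held more, with 25.4 TPM in the Tert-123C>T pool and 38.4 TPM in the wild-type pool.

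Ssbp1, which coats single-stranded mitochondrial DNA during its replication, was at 12.9, 14.4, 13.5 and 16.2 TPM in Braf tumours and at 7.04, 10.4 and 12.7 TPM in Tert-123 tumours. The groups did not overlap. It stood at 7.07 to 8.45 TPM in the K5-Tert tumours, at 4.87 TPM in the Tert-123C>T pool and at 8.59 TPM in the wild-type pool.

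G0s2, an inhibitor of the triglyceride lipase ATGL, had the largest fitted difference of the 12, -1.07 ± 0.34 (SE). Braf tumour 4 held 112.2 TPM and the other 3 held 31.3 to 62.8 TPM, while Tert-123 tumours held 15.1, 26.3 and 50.6 TPM. Exosc7, a subunit of the RNA exosome, also had widely spread Braf tumours (42.9 to 125.5 TPM) against 29.9 to 63.3 TPM. Tspan7, a tetraspanin, was at 26.3 to 32.8 TPM in Braf tumours, and of the Tert-123 tumours only tumour 3, at 28.97 TPM, lay in that range. Serpinb6b, an intracellular serpin with close paralogs that can share reads, was at 9.15 to 19.9 TPM against 4.58 to 10.8 TPM.

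The centrosomal proteins Pibf1 and Ppp1r35 had means of 13.9 ± 2.84 against 9.65 ± 0.866 TPM and of 18.4 ± 3.24 against 12.8 ± 2.68 TPM (SD, n = 4 and 7). Ccdc59, which binds the thyroid factor Nkx2-1, had means of 50.4 ± 5.80 and 37.7 ± 5.48 TPM. Of these 12 genes, 11 were also lower in the Tert-123C>T pool than in the wild-type pool, against 52.7% of all tested genes, with Mctp1 the exception. For the 12 genes on the higher side, 7 were higher in the Tert-123C>T pool, against 46.4% of all tested genes. Each pool is a single library, so these counts have no replicate check. G0s2 is counted as lower at 29.52 against 29.85 TPM. The pools also differed in cell markers. In the Tert-123C>T and wild-type pools, the endothelial gene Pecam1 stood at 173.1 and 70.3 TPM, the C cell gene Calca at 1144 and 335.9 TPM, and Pax8 at 126.2 and 273.6 TPM. The part of this in the counts was not tested.

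Groups without any overlap were rare: 2 genes with every Tert-123 tumour above every Braf tumour (0.0274% of those tested) and 6 with every one below (0.0823%), together 8 (0.11%). The 6 were Ssbp1, Lrrfip2, Isca2, Nprl2, Trim35 and Rbbp6. Isca2, which helps to build mitochondrial iron-sulfur clusters, stood at 18.7 to 22.4 TPM in Braf tumours and 9.03 to 17.7 TPM in Tert-123 tumours. Nprl2, a subunit of the GATOR1 complex that restrains mTORC1, stood at 11.4 to 14.6 TPM and 8.83 to 10.4 TPM. Trim35 and Rbbp6, both of which are ubiquitin ligases, had the smallest fitted differences of the 6, -0.24 and -0.22, with 95% intervals that included 0.

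Apobec3 and Rpl3 are 3 genes apart in the order of the reference on chromosome 15, and their neighbours were examined after their values were seen. D730005E14Rik, next to Apobec3, had a mean of 0.604 ± 0.452 TPM in Braf tumours and 3.11 ± 1.999 TPM in Tert-123 tumours (SD, n = 4 and 7). Tert-123 tumour 7 was again the lowest, at 0.143 TPM, while the other 6 held 2.52 to 6.92 TPM. This gene was below the filter and was not in the fit. Cbx7, on the other side of Apobec3, had means of 14.3 ± 3.70 and 20.8 ± 6.93 TPM. Between Cbx7 and Rpl3 lies Pdgfb, with means of 8.22 ± 3.06 and 9.11 ± 2.27 TPM.

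Genes around Tert on chromosome 13 were examined by their order in the reference. Of the 10 tested genes nearest to it on each side, 7 had a higher and 13 a lower fitted level, with a median of -0.03, and 1 of 20 had an unadjusted p under 0.05, against 1.36% of all genes. Clptm1l, the nearest tested gene before Tert, was at 30.1 ± 1.78 and 33.2 ± 6.91 TPM (SD, n = 4 and 7). Slc12a7, a potassium-chloride cotransporter and the nearest tested gene after it, was at 22.7 ± 2.36 and 24.0 ± 2.94 TPM. Slc6a18 and Slc6a19, which lie between Tert and Slc12a7, and Slc6a3, on the far side of Clptm1l, had means under 0.4 TPM in both groups. Mctp1, a membrane protein with C2 domains and the 9th tested gene after Tert, was the one with the small p, at 17.0, 26.6, 21.7 and 30.8 TPM in Braf tumours and 11.8, 13.5 and 23.8 TPM in Tert-123 tumours. Glrx, which encodes glutaredoxin and is the 8th tested gene after Tert, had means of 34.6 ± 13.0 and 21.6 ± 10.2 TPM. Its difference was -0.70 with an interval of -1.41 to 0.02. With untested genes counted too, Glrx stands 24 and Mctp1 31 genes after Tert, so they are next to each other only among tested genes.

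**Figure D4:**
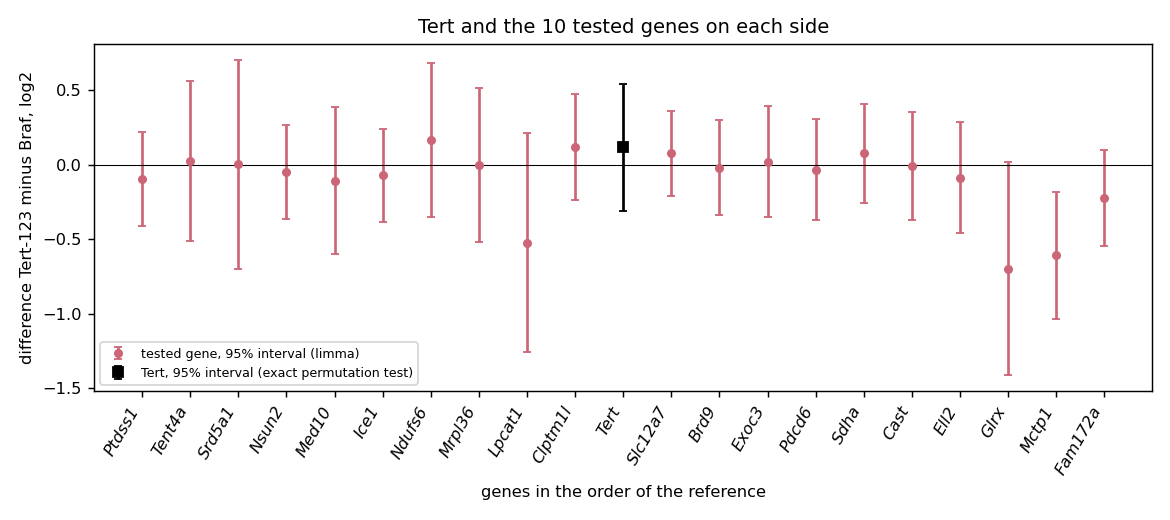
Difference between Tert-123 and Braf tumours on the log2(TPM + 1) scale, with 95% intervals, for Tert and the 10 tested genes on each side in the order of the reference. Of the 20 neighbours, 1 (Mctp1) has an interval that leaves out 0.

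The pathway lists were read by their counts and medians beside those of all tested genes (median -0.007, 0 called). No list held a gene past the adjusted threshold. For telomere maintenance, 13 of 20 listed genes were tested, of which 5 were higher and 8 lower, with a median of -0.11 and all 13 intervals within 2-fold. Acd, which encodes the shelterin protein TPP1 that brings telomerase to the chromosome end, had means of 23.3 ± 2.18 and 29.9 ± 6.11 TPM (SD, n = 4 and 7). The telomerase ribonucleoprotein components Nhp2 and Nop10 had means of 50.5 ± 7.31 and 38.5 ± 11.1 TPM in Braf tumours and of 40.8 ± 11.1 and 34.0 ± 14.6 TPM in Tert-123 tumours. Dkc1, which holds the telomerase RNA in the same complex and lay below the filter, had means of 8.78 ± 1.61 and 6.37 ± 1.17 TPM.

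Of 20 ETS factors, 15 were tested and 9 were higher, with a median of 0.01 and all 15 intervals within 2-fold. Gabpa, the DNA-binding subunit of GABP, stood at 17.8 ± 1.47 and 17.3 ± 2.20 TPM (SD, n = 4 and 7). Its partner Gabpb1, below the filter, stood at 5.37 ± 1.14 and 4.60 ± 1.83 TPM. Etv4 and Etv5, ETS factors that MAPK output raises, had means of 43.5 ± 9.10 and 27.4 ± 2.82 TPM in Braf tumours and of 46.5 ± 11.6 and 28.1 ± 6.61 TPM in Tert-123 tumours.

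MAPK output, the pathway that BrafV600E drives, had 8 of 19 genes higher and a median of -0.03. Dusp6, a phosphatase that ERK signalling induces against itself, had means of 97.4 ± 16.2 and 89.9 ± 27.8 TPM, and the cyclin Ccnd1 had means of 198.3 ± 30.4 and 200.5 ± 58.9 TPM (SD, n = 4 and 7). Thyroid differentiation genes had 4 of 8 tested members higher and a median of 0.003. Tg, the precursor of thyroid hormone, was at 256.8, 96.5, 115.4 and 101.5 TPM in Braf tumours and at 81.8, 145.8 and 510.5 TPM in Tert-123 tumours, with its highest value in tumour 3. Pax8 stood at 85.9 ± 16.6 and 89.1 ± 34.5 TPM.

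Lists of growth, damage control and adhesion were read in the same way. Cell cycle genes had 5 of 7 tested members higher with a median of 0.04, MYC and ribosome biogenesis genes 5 of 18 with -0.05, PI3K and mTOR genes 8 of 17 with -0.004, DNA damage repair genes 3 of 8 with -0.04, and p53 targets 4 of 11 with -0.14. Myc, a transcription factor of cell growth, had means of 24.0 ± 5.24 and 20.6 ± 6.99 TPM (SD, n = 4 and 7). The p53 target Cdkn1a, an inhibitor of the cell cycle, had means of 75.7 ± 6.24 and 73.4 ± 31.6 TPM. The 3 tested Wnt targets (Cd44, Ccnd1 and Myc) had differences of -0.24 to -0.02. Adhesion genes had 3 of 14 higher and a median of -0.04, genes of the epithelial-mesenchymal transition 2 of 7 with -0.04, glycolysis and hypoxia genes 11 of 16 with 0.09, and antioxidant genes 9 of 16 with 0.03.

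Lists of immune cells, stress, energy metabolism and protein synthesis are given next. All 10 tested macrophage genes had a higher mean log2 level, with a median of 0.45, and 1 of their 10 intervals lay within 2-fold. C1qb, a subunit of complement C1q, was at 33.2, 32.6, 44.4 and 41.1 TPM in Braf tumours and at 20.6, 68.3 and 213.8 TPM (lowest, median and highest) in Tert-123 tumours. The lowest was tumour 2 and the highest tumour 4. Without tumours 4 and 7 the median of the macrophage genes was 0.06. Class II antigen presentation (6 of 6 higher, median 0.31) and complement (7 of 9, 0.35) had medians of -0.03 and 0.02 without the same tumours, beside -0.05 for all genes. Stress and immediate-early genes had 16 of 21 higher and a median of 0.26, against 0.02 without tumours 4 and 7. Fos, an immediate-early transcription factor, was at 387.6 TPM in tumour 7 and at 45.6 to 70.3 TPM in the other 6.

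Interferon response genes had 7 of 9 higher and a median of 0.20, or 0.06 without tumours 4 and 7, where all genes had -0.05. Of the 9, 2 had an unadjusted p under 0.05, Apobec3 and Isg15, against 1.36% of all genes. Isg15 passed the filter through 4 Tert-123 tumours and 0 Braf tumours, so the count of 2 is a description and supports nothing. Isg15, a ubiquitin-like protein that interferon induces, was named after its values were seen, and had means of 4.35 ± 1.43 and 11.1 ± 7.08 TPM (SD, n = 4 and 7). The most abundant interferon-induced gene in the list, Ifitm3, had means of 316.5 ± 39.4 and 340.6 ± 102.2 TPM.

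Oxidative phosphorylation had 31 of 40 genes higher and a median of 0.14, and the cytosolic ribosomal proteins 30 of 44 and 0.09. Their medians without tumours 4 and 7 were -0.008 and -0.02, and that of all genes was -0.05. Among the 40, Cmc1 was the one with an unadjusted p under 0.05, and Rpl3 was the one among the 44, against 1.36% of all genes. Cmc1 passed the filter through 5 Tert-123 tumours and 0 Braf tumours. These counts are therefore a description and support nothing. Cox6c, an abundant subunit of cytochrome c oxidase, had means of 1121 ± 251.9 and 1359 ± 590.4 TPM (SD, n = 4 and 7), with 2479 TPM in tumour 7. Ribosomal protein Rplp1 had means of 2646 ± 348.2 and 2972 ± 670.2 TPM. Unfolded protein response genes had 14 of 17 higher with a median of 0.09, class I antigen presentation 6 of 8 with 0.22, NF-kB targets 7 of 10 with 0.07, and extracellular matrix 12 of 17 with 0.15.

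**Figure D5:**
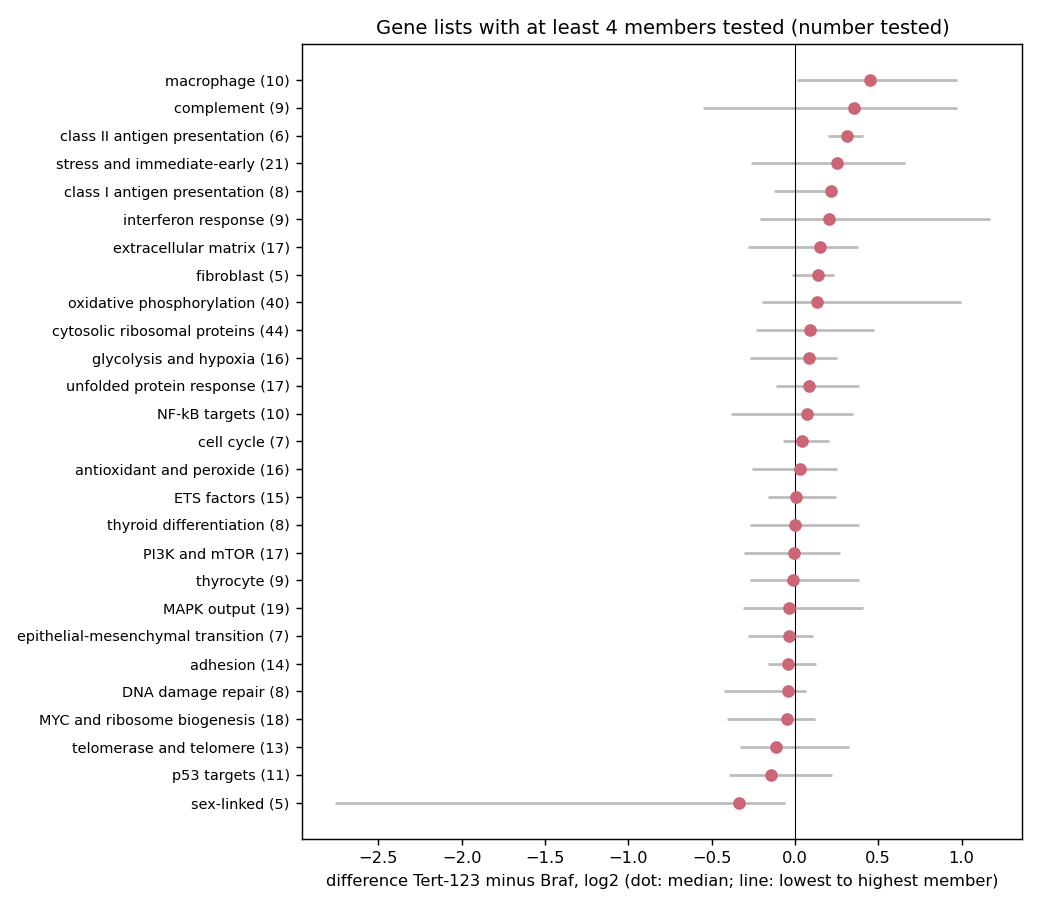
Median difference between Tert-123 and Braf tumours (dot) and the range of its members (line), on the log2(TPM + 1) scale, for the 27 lists with at least 4 tested members. Macrophage genes have the highest median (0.45) and sex-linked genes the lowest (-0.33), and no list holds a gene past the adjusted threshold. By Xist and Ddx3y the groups differ in sex.

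Genes of the sex chromosomes split the Tert-123 tumours. Xist, the RNA that silences an X chromosome, was at 63.9 to 89.9 TPM in the 4 Braf tumours and at 54.5 to 88.1 TPM in Tert-123 tumours 1 to 4, and did not pass 0.0636 TPM in tumours 5, 6 and 7. The Y-linked gene Ddx3y showed the reverse, at 18.2 to 23.5 TPM in tumours 5, 6 and 7 and at 0.80 TPM or less in the other 8. Kdm5c, an X-linked histone demethylase that escapes silencing, had means of 19.3 ± 1.42 and 15.2 ± 2.28 TPM (SD, n = 4 and 7; limma, unadjusted p = 0.03065, adjusted p = 0.9994). By these genes the 4 Braf tumours and Tert-123 tumours 1 to 4 read as female, and tumours 5, 6 and 7 as male. The groups thus differ in sex, from which the Kdm5c difference and the median of the sex-linked list (-0.33) cannot be told apart. Tspan7 and Cetn2, named above for their small p, also lie on the X chromosome. The part of sex in their levels and in those of other genes was not tested. With Xist as a covariate 0 genes were called.

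Levels in TPM varied more among the Tert-123 tumours than among the Braf tumours. The Rpph1 share, which scales all other genes, also ranged more widely among them, from 43.7% to 67.4% against 54.2% to 62.6%. By the sex-linked genes the Tert-123 tumours also read as both sexes, and the Braf tumours as female. The part of the scaling and of sex in this spread was not tested. The median SD of log2(TPM + 1) over the tested genes was 0.21 among the 4 Braf tumours and 0.34 among the 7 Tert-123 tumours, or 0.32 without tumour 4, and the SD was larger in Tert-123 tumours for 6220 genes (85.4%), a difference that was not tested. Of the genes with a mean of at least 50 TPM in the Tert-123 tumours, Dcpp3, Chil3, Dcpp2, Rab26os, Dcpp1, Gng4, Psca, Ccl6, Thbs4, Wfdc17, Lyz2 and Mmp2 varied most among them, with an SD of 1.85 to 3.04.

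Several of these genes are known from macrophages and stroma and were highest in tumour 4. Lyz2, the lysozyme of myeloid cells, was at 446.1 to 847.1 TPM in Braf tumours and at 128.3, 722.3 and 4275 TPM in Tert-123 tumours. Chil3, a chitinase-like protein of alternatively activated macrophages, was at 36.6 to 130.2 TPM and at 3.28, 37.2 and 787.5 TPM. The chemokine Ccl6 reached 1385 TPM and the matrix protease Mmp2 reached 236 TPM in tumour 4.

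The Dcpp genes, which encode secreted proteins of salivary glands, followed another order. Dcpp3 was at 3292, 508.4, 49.5 and 4740 TPM in Braf tumours and at 12.04, 484.8 and 9816 TPM in Tert-123 tumours, with tumour 5 highest and tumour 3 lowest. Dcpp1 and Dcpp2 were also highest in tumour 5, at 7643 and 5432 TPM. The 3 genes are close copies, so reads may have been split between them. Psca, a surface antigen of epithelial cells, was at 63.4 to 159.6 TPM in Braf tumours and ranged from 0.921 TPM in Tert-123 tumour 4 to 196.2 TPM in tumour 3.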

How the data were processed

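Messenger RNA was sequenced from YFP-sorted cells, and the authors deposited 1 table of gene values for 18 libraries. Its columns each sum to 1000000 with all entries, so the values the authors deposited were treated as TPM, although the table is named for normalized counts. Which aligner and build were used, and the depth, is not given in the sources used here. Of 23652 entries, 26 with names turned into dates were left out, and 23499 of the 23626 kept matched a symbol of the reference. No 2 columns were identical. Numbers of tumours follow the order of deposition and pair nothing.

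Genes with at least 10 TPM in at least 4 of the 11 libraries were fitted as log2(TPM + 1) in limma 3.58.1 (R 4.3.3), with a trend, two-sided, with Benjamini-Hochberg adjustment over all of them and a threshold of 0.05. Fitted differences understate changes of low genes. Tert and Braf, below that filter, were compared by exact permutation. The method was tested on simulated data: in 20 runs with 200 of 7287 genes changed, a median of 10 and at most 13 unchanged genes were called.

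The members and the 40 gene lists were chosen with earlier results of these data known. Named are Tert and Braf, the 12 smallest p in each direction, up to 4 genes per list (the most abundant and the smallest p), the 12 most variable genes and the 10 tested genes on each side of Tert. Genes named beyond this rule were chosen after their values were seen: these include Lrrfip2, Isca2, Nprl2, Trim35, Rbbp6, the marker genes used to check the label, Dkc1, Gabpa, Gabpb1, Etv5, Fos, Ddx3y, Isg15, the untested neighbours of Tert and the neighbours of Apobec3.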

Additional observations from a re-analysis of the deposited data

Results flagged for a closer look

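Values were examined in 130 groups of libraries (named genes and list scores, in each tumour group). In 11 of them the highest or lowest library lay far from the rest. The usual chance rate of about 1 in 20 does not apply here. Genes other than Tert and Braf were chosen from these same libraries by their small p or their large spread, and the groups share libraries. The figure given is the gap to the nearest library as a share of the group's whole range. In Tert-123 tumour 7, Apobec3 was low (0.584), Nr4a2 was low (0.597) and the stress and immediate-early score was high (0.678). In Tert-123 tumour 4, Rab26os was low (0.792), Psca was low (0.590) and Man2b2 was high (0.580). Smagp was high in Tert-123 tumour 3 (0.575), and the cell cycle score was low in Tert-123 tumour 1 (0.620), the library with the highest Rpph1 share. Among Braf tumours, Nr4a2 was high in tumour 2 (0.933), Gng4 was low in tumour 3 (0.872) and the Braf gene was low in tumour 1 (0.844).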

How the results depend on the processing

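Over 26 alternatives, 23 called 0 genes, as the reported fit did, and 3 called 1 gene higher, Apobec3: library weights (1 gene, adjusted p = 0.03966), leaving out Tert-123 tumour 7 (1 gene, adjusted p = 0.008342) and, chosen after the data were seen, leaving out Tert-123 tumours 4 and 7 (1 gene, adjusted p = 0.008068), all by limma. Tumour 7 is the Tert-123 library whose Apobec3 level lay among the Braf tumours, so the calls without it follow from leaving it out. Leaving out each library in turn gave 0 to 1 genes higher and 0 lower. The Apobec3 difference ranged from 0.99 to 1.40, with an adjusted p between 0.008068 and 1. Unadjusted p was under 0.05 for 99 genes as reported, for 11 with a filter of 50 TPM, for 320 after rescaling without Rpph1, for 258 with TMM-type factors, for 248 with quantile normalization, for 217 with Xist as a covariate, for 578 with library weights and for 610 without a filter. The smallest adjusted p was 0.6397 with a filter of 1 TPM (14112 genes) and 0.1492 with none (22654 genes). With macrophage or fibroblast scores as covariates, both added after the data were seen, 0 genes were called. Tert kept its direction and stayed short of the threshold in all 17 of its alternatives, with differences of 0.04 to 0.26. No direction reversed among the called values, and the cause of these changes was not tested. No paired analysis was possible because the labels carry no replicate numbers. The depth is unknown, so counting error is not separated from the spread between libraries.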

Other observations

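Markers of cells outside the thyroid follicle, beyond those in the report, were low in both groups. B cell genes summed to at most 9.59 TPM in any of the 11 libraries, and neuroendocrine genes to at most 36.9 TPM. Neutrophil genes ranged from 0.96 to 76.7 TPM in Tert-123 tumours and from 13.7 to 23.8 TPM in Braf tumours, and S100a8, a calcium-binding protein of neutrophils, was highest in Tert-123 tumour 7, at 75.4 TPM. Basal keratinocyte genes summed to 14.5 to 30.9 TPM in Tert-123 tumours and 18.9 to 41.2 TPM in Braf tumours. Pericyte and smooth muscle genes summed to 10.8 to 94.8 TPM and 17.2 to 36.2 TPM, and the 2 parathyroid genes to at most 33.3 TPM and 8.19 TPM, in the same order. Gng4, a G protein subunit, was at 0.406 TPM in Tert-123 tumour 6 and 220.9 TPM in tumour 5, and at 0.0783 TPM in Braf tumour 3 against 22.5 to 35.9 TPM in the other Braf tumours. Of the 24 genes with the smallest p, 4 lie on chromosome 15 (Apobec3, Rpl3, Smagp and Otulin), which holds 4.34% of the tested genes. Chromosomes 6 (Cracr2a, Gprin3 and Ssbp1) and 13 (Mctp1, Habp4 and Serpinb6b) carry 3 each, and hold 4.84% and 3.26% of the tested genes. The X chromosome carries 2 (Tspan7 and Cetn2) and holds 2.62%, and the groups differ in sex. Chromosomes 2, 5, 9 and 10 also carry 2 each, and hold 7.8%, 6.50%, 5.50% and 4.71%.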
